A study of Mus musculus with 12 samples.

Results

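The 10 genes described here are 3 receptors (Notch1, Notch2, Notch3), 3 ligands (Jag1, Jag2, Dll1) and 4 target genes (Hes1, Hes5, Hey1, Nrarp) of the Notch pathway. They were chosen by name: every probe set whose annotation gives 1 gene symbol equal to a member was taken, which gave 10 probe sets, 1 for each gene, among 17103 genes with 1 symbol and 28815 probe sets in all. A further probe set annotated to both Pgp and Jag2 was left out by this rule. The series set induced neural stem cells, wild-type neural stem cells and wild-type embryonic fibroblasts of the mouse, as labelled, side by side on 12 expression arrays. The induced cells form 2 sets, iNSC1 and iNSC2, and with the wild-type neural stem cells (NSC) and mouse embryonic fibroblasts (MEF) there were 4 groups of 3 arrays. Both iNSC sets and the NSC cells grew in neural stem cell basal medium with EGF at 20 ng/ml, FGF-2 at 20 ng/ml and heparin at 2 µg/ml. The MEF cells grew in DMEM with 10% serum (fetal bovine), so that cell label and medium cannot be told apart in any comparison with MEF. All cells were rinsed in serum-free medium before collection, and each array received biotin-labelled material from 300 ng of total RNA. The sources used here give no strain, age or induction factors and do not say what separates iNSC1 from iNSC2.

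Notch receptors are single-pass membrane proteins that bind Jagged or Delta-like ligands on a neighbouring cell. Binding leads to cleavage by an ADAM protease and by gamma-secretase, and the freed intracellular domain enters the nucleus, where it joins RBPJ and Mastermind proteins and switches on genes such as those of the HES and HEY families. HES and HEY proteins are transcriptional repressors. In neural progenitors they hold back proneural genes, and the pathway is known for keeping progenitors undifferentiated.

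The promoters of the members were searched for the letters that these factors read. RefSeq promoters of build GRCm38.p6 matched 8 of the 10 members by symbol (Dll1 with 2), and the 250 bases before each transcript start were searched on both strands for GTGGGAA, a motif of RBPJ, for its core TGGGAA, which lies within it, and for CACNAG, the N box bound by HES proteins. Hes1 and Hey1 had no entry. Promoters of 3 members are printed: that of Hes5, which held the RBPJ motif, that of Nrarp, the member with the largest rise over MEF, and that of Notch3, the member with the largest fall. Capitals mark the RBPJ motif in Hes5 and the N box in Nrarp and Notch3, on either strand. They lie at chr4:154960673-154960922 (plus strand), chr2:25180508-25180757 (plus strand) and chr17:32166891-32167140 (minus strand).
Hes5: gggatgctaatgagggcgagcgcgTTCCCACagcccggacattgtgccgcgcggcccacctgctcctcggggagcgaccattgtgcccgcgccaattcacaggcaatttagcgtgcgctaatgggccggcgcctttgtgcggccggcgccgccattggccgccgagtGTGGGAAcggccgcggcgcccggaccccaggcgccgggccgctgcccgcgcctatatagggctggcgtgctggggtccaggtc
Nrarp: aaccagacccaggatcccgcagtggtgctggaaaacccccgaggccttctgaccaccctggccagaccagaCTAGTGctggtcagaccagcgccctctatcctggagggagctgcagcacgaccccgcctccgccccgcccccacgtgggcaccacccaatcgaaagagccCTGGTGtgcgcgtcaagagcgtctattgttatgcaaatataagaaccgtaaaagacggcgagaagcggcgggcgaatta
Notch3: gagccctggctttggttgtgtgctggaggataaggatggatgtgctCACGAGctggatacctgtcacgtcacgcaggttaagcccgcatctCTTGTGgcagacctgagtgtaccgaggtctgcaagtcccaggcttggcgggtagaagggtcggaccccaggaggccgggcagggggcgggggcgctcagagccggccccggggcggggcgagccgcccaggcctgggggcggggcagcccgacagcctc
Hes5 held 2 RBPJ motifs, which begin 226 and 83 bases before the start. Of 32851 promoters of this length 5.42% held at least 1 and 0.161% at least 2, and the core was found in 21.6%. None of the other 8 promoters searched held the motif or the core. Nrarp and Notch3 each held 2 N boxes and Notch1 and Notch2 1 each, against 36.7% of promoters with at least 1 and 8.18% with at least 2. A match describes the letters only.

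Values are log2 RMA values, so a difference of 1 is a 2-fold change. The medians of the arrays over all probe sets lay between 4.31 and 4.44. No detection call came with the values, which leaves low readings without a mark against background, and levels are compared within a gene only. In bulk samples, fewer cells of a type and less RNA per cell cannot be told apart. The cell labels were checked against marker lists. Of 12 neural stem cell markers, 3 were higher and 2 lower in NSC, and 0 higher and 2 lower in iNSC, than in MEF under the limma call rule given in the next paragraph. The same rule called 8.72% of all genes higher and 9.96% lower in NSC, and 8.21% higher and 10.9% lower in iNSC. Among the neural stem cell markers an unadjusted p under 0.05 was found for 7 in NSC and 8 in iNSC, beside 55.7% and 59.5% of all genes. By the adjusted p alone 5 were higher and 2 lower in each. The 3 called higher in NSC were Pax6 (1.16), Olig2 (1.11) and Sox1 (1.02), and the 2 lower in each were Vim and Cdh2. Sox2, a factor that defines neural stem cells, had group means of 4.56 (iNSC1), 4.42 (iNSC2), 4.58 (NSC) and 4.50 (MEF). Of 8 pluripotent cell markers measured, 4 were called higher in NSC and 5 in iNSC than in MEF, beside 8.72% and 8.21% of all genes. None was called lower. By the adjusted p alone 6 were higher and 0 lower in NSC, and 5 higher and 1 lower in iNSC. The 1 lower was Tdgf1 (-0.49), while Esrrb (0.20) and Dppa5a (0.21) did not pass in iNSC. Nanog and Zfp42 were not among the genes tested. Of the markers measured, Pou5f1, a factor that defines such cells, had group means of 12.98, 13.01, 12.89 and 3.54 in the same order. Groups are therefore named by their labels, not as known cell types. Of 12 fibroblast markers, 12 were called lower in NSC than in MEF, and 11 were called lower and 1 higher in iNSC. Among all genes 9.96% were called lower in NSC, and 10.9% lower and 8.21% higher in iNSC. The marker that was higher was Dcn, which encodes the matrix protein decorin, at 1.86 above MEF (adjusted p = 3.13e-09). Of 11 macrophage markers, 7 were called lower in NSC and 8 in iNSC, beside the same 9.96% and 10.9% of all genes. List means were 6.38 to 6.73 on MEF arrays and 3.66 to 3.89 on the others. The part of these cell types in the differences from MEF was not tested.

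In iNSC against MEF, 5 of the 10 members changed at least 2-fold at an adjusted p under 0.05 (limma, Benjamini-Hochberg over all 17103 genes): Jag2 and Nrarp rose, and Notch1, Notch3 and Jag1 fell. Among all genes 19.1% were called in this comparison, 8.21% higher and 10.9% lower. In NSC against MEF, Jag2 and Nrarp rose and Notch3 and Hes1 fell, 4 of 10, where 18.7% of all genes were called, 8.72% higher and 9.96% lower. In iNSC against NSC, Hes1 and Jag2 rose and no member fell, 2 of 10, where 6.55% of all genes were called, 2.91% higher and 3.65% lower. The median log2 difference of the members was 0.13, -0.046 and -0.11 in these comparisons, beside 0.061, 0.045 and 0.0080 over all genes. By the adjusted p alone 8, 8 and 6 members passed, against 55.9%, 51.9% and 35.8% of all genes. The arrays of the groups compared did not overlap for 8, 9 and 5 members, against 49.2%, 57.0% and 33.0% of all genes. The comparisons share arrays, since each group enters more than 1 of them.

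**Figure D1:**
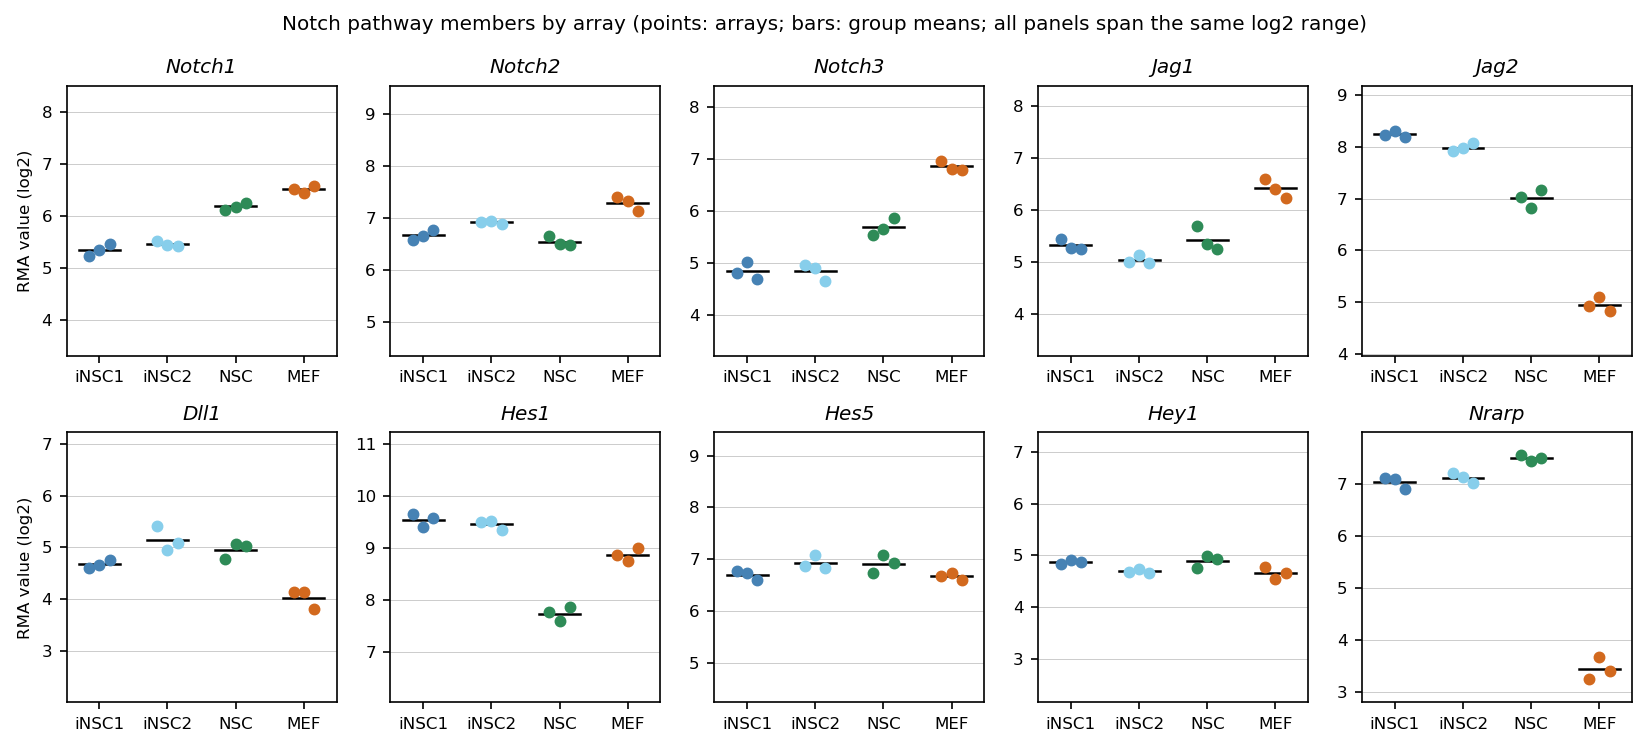
Log2 RMA values (y axis) of the 10 members on each array, by group (x axis), with points for arrays and bars for group means; all panels span the same log2 range. Jag2 and Nrarp are low in the MEF arrays, Hes1 is low in the NSC arrays, and Hes5 and Hey1 are nearly level.

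**Figure D2:**
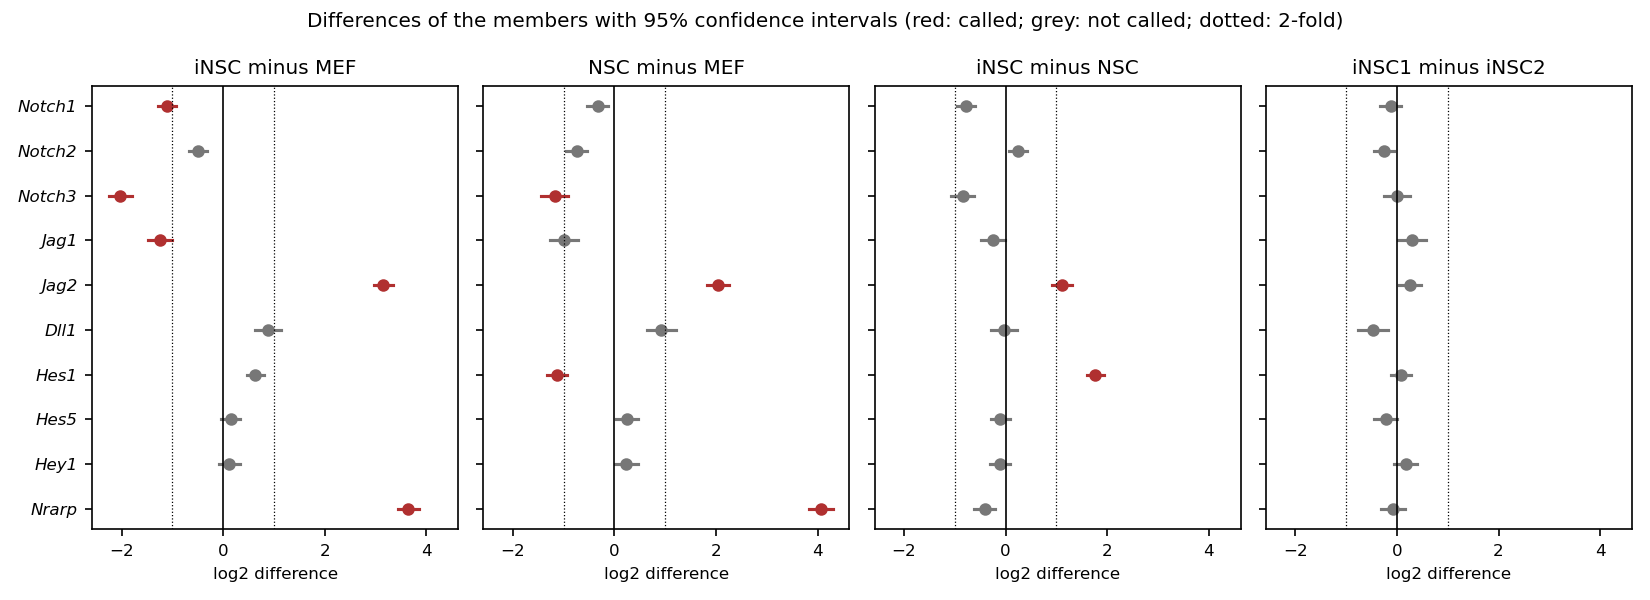
Log2 differences (x axis) of the 10 members (y axis) in 4 comparisons, with 95% confidence intervals from limma; red marks called members, grey the others, and dotted lines 2-fold. Between 0 and 5 members are called in a comparison, and the interval for Hes1 lies on opposite sides of 0 in iNSC minus MEF and NSC minus MEF.

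All 3 receptors had their highest mean in MEF. Notch1, annotated on chromosome 2 from 26313529 to 26359318 on the minus strand (the sources used here do not name the build of these positions), is the receptor best known from neural progenitors. It read 5.23, 5.33 and 5.45 on the iNSC1 arrays, 5.52, 5.45 and 5.42 on iNSC2, 6.12, 6.18 and 6.24 on NSC, and 6.52, 6.43 and 6.57 on MEF. All 6 iNSC arrays lay below all NSC arrays, which lay below all MEF arrays. Notch1 fell by 1.11 ± 0.084 (SE) in iNSC against MEF (limma adjusted p = 2.47e-09), 2.15-fold. It was 0.78 lower than in NSC (95% interval of iNSC minus NSC -0.96 to -0.60, adjusted p = 7.62e-07), which is short of 2-fold, and NSC minus MEF was -0.33 (adjusted p = 0.00837).

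Notch3, on chromosome 17 from 32257838 to 32303797 on the minus strand, is a receptor known from the smooth muscle and pericytes of vessels. Its readings were 4.79, 5.01 and 4.69 on iNSC1, 4.96, 4.90 and 4.64 on iNSC2, 5.53, 5.65 and 5.86 on NSC, and 6.97, 6.80 and 6.79 on MEF. The 3 steps from iNSC to NSC to MEF did not overlap, and the means of iNSC1 and iNSC2 were both 4.83. Notch3 fell by 2.02 ± 0.11 in iNSC against MEF (limma adjusted p = 1.97e-11), 4.06-fold, the largest fall among the members, and 653 of the 17103 genes had a more negative difference. In NSC against MEF it fell by 1.18 (adjusted p = 2.9e-07). The iNSC minus NSC difference was -0.85 (adjusted p = 5.95e-06), below 2-fold. Most markers of smooth muscle and pericytes were also lower than in MEF. Of 9 measured, 6 were called lower in iNSC, and 6 lower and 1 higher in NSC. Among all genes 10.9% were called lower in iNSC, and 9.96% lower and 8.72% higher in NSC. Des (-0.18), Abcc9 (-0.30) and Kcnj8 (0.46) were not called in iNSC against MEF. The mean log2 value over the list ran from 7.84 to 7.92 on MEF arrays, 4.45 to 4.67 on iNSC arrays and 4.67 to 4.71 on NSC arrays. In iNSC against NSC, where Notch3 was lower, Cspg4 was called higher (1.20) and Des lower. The part of these markers in the Notch3 difference was not tested.

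Notch2, on chromosome 3 from 97817461 to 97954285 on the plus strand, is a receptor expressed in many tissues. It read 6.59, 6.66 and 6.77 on iNSC1, 6.94, 6.96 and 6.89 on iNSC2, 6.66, 6.51 and 6.49 on NSC, and 7.41, 7.33 and 7.14 on MEF. The MEF arrays lay above all others, while the iNSC and NSC arrays overlapped. No difference reached 2-fold: NSC minus MEF was -0.74 (limma adjusted p = 3.03e-06) and iNSC minus MEF -0.50 (adjusted p = 5.03e-05). For iNSC minus NSC the adjusted p was 0.0262 in limma with a difference of 0.25, while the authors' deposited table gives an adjusted p of 0.062 for this ratio. The order of means was MEF, iNSC2, iNSC1, NSC, and neither the step from iNSC2 to iNSC1 (adjusted p = 0.255) nor that from iNSC1 to NSC (adjusted p = 0.388) passed.

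Both Jagged ligands changed in iNSC against MEF, in opposite directions. Jag2, on chromosome 12 from 114146801 to 114167706 on the minus strand, is a ligand known from thymus, limb and epithelial development. It read 8.22, 8.30 and 8.18 on iNSC1, 7.91, 7.97 and 8.07 on iNSC2, 7.03, 6.81 and 7.17 on NSC, and 4.93, 5.11 and 4.83 on MEF. No group overlapped another. Jag2 rose by 3.15 ± 0.090 in iNSC against MEF (limma adjusted p = 3.58e-15), 8.89-fold, and only 88 genes of 17103 had a larger rise. In NSC against MEF it rose by 2.04 (adjusted p = 1.54e-11). It was the 1 ligand called in iNSC against NSC, where it rose by 1.11 (adjusted p = 2e-08). Epithelial markers were mixed in this comparison: of 8, the keratins Krt8 (1.43), Krt14 (2.24) and Krt19 (2.38) were called higher. Among all genes 2.91% were called higher there. Epcam was lower without reaching 2-fold (-0.38, limma adjusted p = 0.00843). Krt5 (-0.12), Krt18 (0.29), Cdh1 (-0.25) and Trp63 (0.066) did not pass. List means were 5.60 to 5.85 on iNSC arrays and 4.92 to 5.09 on NSC arrays. The part of epithelial markers in the Jag2 difference was not tested.

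Jag1, on chromosome 2 from 136907194 to 136942431 on the minus strand, is the ligand known from vessels, inner ear and bile duct development. Its readings were 5.45, 5.27 and 5.25 on iNSC1, 4.99, 5.13 and 4.97 on iNSC2, 5.69, 5.35 and 5.25 on NSC, and 6.61, 6.41 and 6.24 on MEF. The MEF arrays lay above all others, and iNSC and NSC overlapped. Jag1 fell by 1.24 ± 0.11 in iNSC against MEF (limma adjusted p = 2.6e-08). NSC minus MEF was -0.99 (adjusted p = 3.65e-06), just short of 2-fold. It passed 2-fold without NSC replicate 1 (-1.12) or MEF replicate 5 (-1.08), and with each array centred on its median (-1.04). The iNSC minus NSC difference was -0.25 (adjusted p = 0.0961), with an interval from -0.49 to -0.014.

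Dll1, on chromosome 17 from 15504318 to 15512551 on the minus strand, is the Delta-like ligand made by differentiating neural progenitors. It read 4.61, 4.67 and 4.77 on iNSC1, 5.42, 4.96 and 5.09 on iNSC2, 4.77, 5.08 and 5.02 on NSC, and 4.14, 4.13 and 3.81 on MEF. All 9 other arrays lay above the MEF arrays, and iNSC overlapped NSC. The differences from MEF were 0.89 in iNSC (limma adjusted p = 4.39e-06) and 0.93 in NSC (adjusted p = 1.76e-05), both under 2-fold. The NSC difference reached 1.02 without NSC replicate 1. The iNSC minus NSC difference was -0.036 (interval -0.29 to 0.22). How far the Dll1 readings stand above background is not known.

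The 4 target genes showed 3 patterns. Nrarp, on chromosome 2 from 25036278 to 25038859 on the plus strand, encodes a small ankyrin-repeat protein that binds the Notch intracellular domain and dampens its activity. It read 7.12, 7.10 and 6.91 on iNSC1, 7.21, 7.14 and 7.02 on iNSC2, 7.55, 7.44 and 7.50 on NSC, and 3.24, 3.67 and 3.40 on MEF. The MEF arrays stood far below the rest. Nrarp rose by 4.06 ± 0.11 in NSC against MEF (limma adjusted p = 4.52e-15), 16.7-fold, where 22 of 17103 genes rose more, and by 3.65 ± 0.098 in iNSC against MEF (adjusted p = 1.42e-15), 12.5-fold, where 48 genes rose more. Between iNSC and NSC the groups did not overlap either, with a difference of -0.41 (adjusted p = 0.00255), well under 2-fold. How far its MEF readings stand above background is not known.

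Hes1, on chromosome 16 from 30065443 to 30067882 on the plus strand, encodes the HES repressor that oscillates in neural progenitors. It read 9.66, 9.41 and 9.58 on iNSC1, 9.50, 9.53 and 9.36 on iNSC2, 7.76, 7.60 and 7.86 on NSC, and 8.87, 8.74 and 9.00 on MEF. The iNSC arrays were the highest and the NSC arrays the lowest, with MEF between and no overlap. Hes1 fell by 1.13 ± 0.092 in NSC against MEF (limma adjusted p = 9.09e-09). In iNSC it was 0.64 above MEF (adjusted p = 1.86e-06), under 2-fold. Between iNSC and NSC it rose by 1.76 ± 0.080 (adjusted p = 7.09e-12), 3.40-fold, and 189 of 17103 genes had a larger rise.

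Hes5 and Hey1 passed in no comparison. Hes5, on chromosome 4 from 154335032 to 154336480 on the plus strand, encodes a HES repressor of neural progenitors that is widely used as a readout of Notch activity. It read 6.78, 6.73 and 6.60 on iNSC1, 6.86, 7.09 and 6.83 on iNSC2, 6.74, 7.08 and 6.93 on NSC, and 6.68, 6.73 and 6.60 on MEF. The means spanned 0.26 from the highest to the lowest group. The NSC arrays lay just above the MEF arrays, iNSC2 lay just above iNSC1, and the iNSC arrays together overlapped both NSC and MEF. The NSC minus MEF difference was 0.25 (limma adjusted p = 0.0613, interval 0.023 to 0.47), and iNSC minus MEF 0.15 (adjusted p = 0.195, interval -0.049 to 0.34).

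Hey1, on chromosome 3 from 8663359 to 8667039 on the minus strand, encodes a HEY repressor known from vessels, heart and brain. Its readings were 4.83, 4.91 and 4.87 on iNSC1, 4.68, 4.75 and 4.66 on iNSC2, 4.75, 5.00 and 4.94 on NSC, and 4.77, 4.54 and 4.67 on MEF. Groups overlapped in each comparison of iNSC, NSC and MEF. The NSC minus MEF difference was 0.24 (limma adjusted p = 0.0836, interval 0.0048 to 0.47) and iNSC minus MEF 0.12 (adjusted p = 0.293). The intervals of both genes exclude a 2-fold difference of the array readings in either direction, while a smaller one is not excluded. How far the Hey1 readings stand above background is not known.

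**Figure D3:**
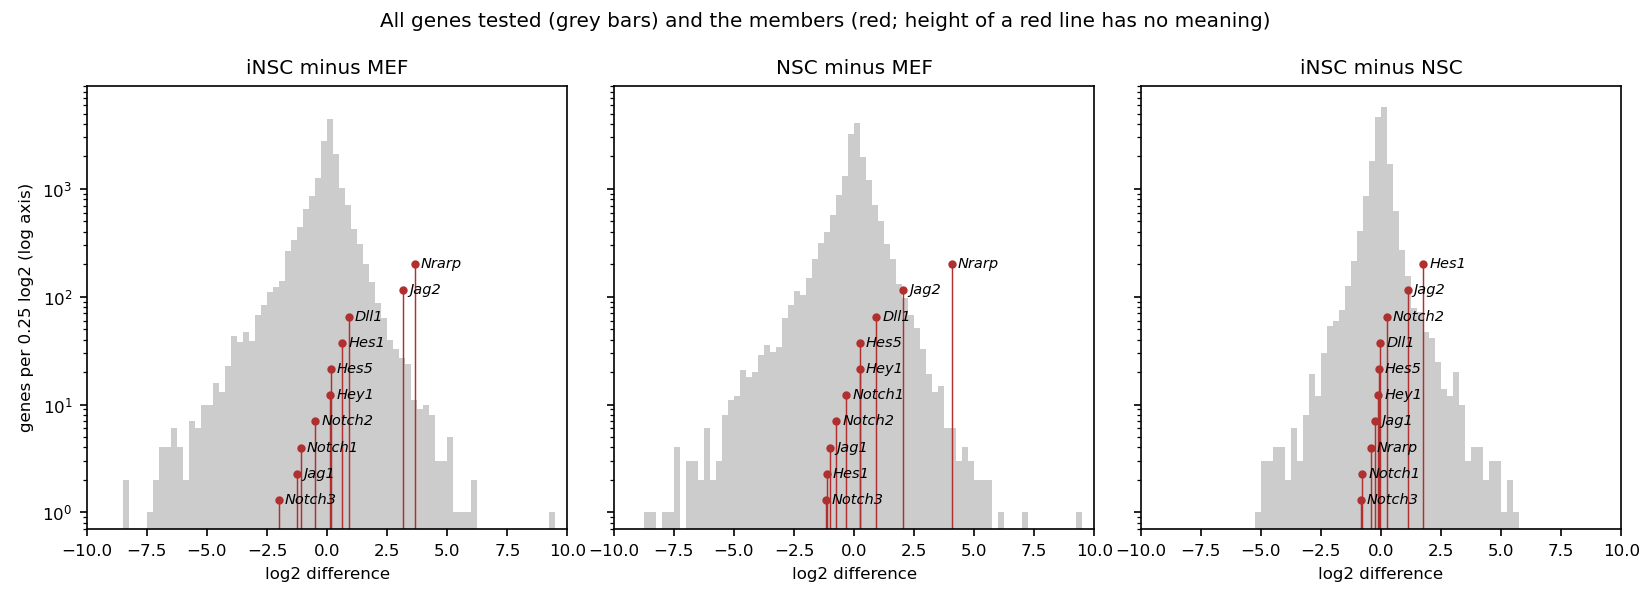
Number of genes (y axis, log scale) by log2 difference (x axis, bins of 0.25) for all 17103 genes in grey, with the 10 members as red lines whose height has no meaning. Nrarp and Jag2 lie in the right tail in both comparisons with MEF, and Hes1 in that of iNSC minus NSC.

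Between the iNSC sets limma called 0 of the 10 members, against 0.152% of all genes, and 4 members had an unadjusted p under 0.05, against 11.6% of all genes. By the adjusted p alone none passed either, against 2.3% of all genes. The largest member difference was that of Dll1, -0.47 for iNSC1 minus iNSC2 (adjusted p = 0.106, interval -0.76 to -0.18), whose arrays did not overlap. Jag1 (0.29), Jag2 (0.25) and Notch2 (-0.25) followed, with adjusted p of 0.382, 0.322 and 0.255. In all, 6 of the 10 members had iNSC1 and iNSC2 arrays that did not overlap, against 17.9% of all genes. Set against NSC one at a time, both sets gave Hes1 a difference past 2-fold (1.81 in iNSC1 and 1.72 in iNSC2), whereas Jag2 was at 1.24 in iNSC1 and 0.98 in iNSC2. Set against MEF, Dll1 was at 0.66 in iNSC1 and 1.12 in iNSC2, and the difference between the sets did not pass.

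The wider pathway was followed in 64 other genes, of which 58 were measured. In iNSC against MEF 5 were called higher and 4 lower, in NSC against MEF 4 higher and 4 lower, and in iNSC against NSC 4 higher and 1 lower. These are 15.5%, 13.8% and 8.62% of the 58, beside 19.1%, 18.7% and 6.55% of all genes. Their median differences were -0.0013, 0.14 and -0.10. In iNSC1 against iNSC2 limma called 0 of the 58, and 6 had an unadjusted p under 0.05, which is 10.3% beside 11.6% of all genes. The lists behind these counts cover receptors and ligands, their modifiers, receptor cleavage, the nuclear complex, turnover, other HES and HEY factors and proneural factors.

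Fringe enzymes add sugars to the receptors and shift their choice of ligand, and all 3 read lowest in MEF. Mfng, manic fringe, had a mean of 8.41 ± 0.14 (SD, n = 3) for iNSC1, 7.94 ± 0.17 for iNSC2, 5.55 ± 0.19 for NSC and 4.63 ± 0.22 for MEF. It rose by 3.55 in iNSC against MEF (limma adjusted p = 1.43e-14) and by 2.63 against NSC (adjusted p = 3.57e-12), the largest change among the pathway genes outside the members. Lfng, lunatic fringe, rose by 1.14 in iNSC (adjusted p = 7.87e-10) and by 1.44 in NSC (adjusted p = 3.2e-10) against MEF. Rfng, radical fringe, was 0.64 and 0.76 above MEF, which passed the adjusted p without reaching 2-fold. Pofut1, which adds the fucose that fringe enzymes extend, fell by 1.05 in iNSC against MEF (adjusted p = 2.24e-08), a call that ended without MEF replicate 1 (-0.96). In NSC Pofut1 was 0.71 below MEF (adjusted p = 2.2e-05), short of 2-fold.

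Among other receptors and ligands, Notch4, a receptor of endothelial cells, rose by 1.40 in iNSC against MEF (limma adjusted p = 1.09e-09), with means of 7.18 (iNSC1), 6.50 (iNSC2), 6.19 (NSC) and 5.44 (MEF). Endothelial markers were mixed. Of 9 measured, Esam (1.95), Flt1 (1.65) and Tek (1.26) were called higher and Eng (-1.19) lower in iNSC than in MEF. Pecam1 (0.23), Cdh5 (0.046), Kdr (-0.034), Tie1 (0.40) and Cldn5 (0.14) were not called there. Among all genes 8.21% were called higher and 10.9% lower. In NSC against MEF Tek (2.66), Pecam1 (1.71), Esam (1.685) and Eng (1.15), 4 of the 9, were called higher and 0 lower. The shares of all genes were 8.72% and 9.96%. List means ran from 5.07 to 5.16 on iNSC arrays, 5.35 to 5.41 on NSC arrays and 4.55 to 4.68 on MEF arrays. The part of endothelial cells in the Notch4 difference was not tested. Dlk1, a Delta-like membrane protein that lacks the domain of classical ligands, fell by 2.32 in iNSC (adjusted p = 2.2e-11) and by 2.46 in NSC (adjusted p = 1.07e-10) against MEF. The genes Dll3, Dll4 and Dlk2 were not called in any comparison, and Dner was not among the genes tested.

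Of 8 genes of receptor cleavage, limma called 0 in iNSC against NSC, beside 6.55% of all genes. There 5 had an unadjusted p under 0.05, beside 42.4% of all genes. By the adjusted p alone 5 were lower and none higher, where 35.8% of all genes passed in either direction. The median was -0.29, beside 0.0080 over all genes. Psen2, a catalytic subunit of gamma-secretase, was the 1 gene of the list called against MEF. It fell by 1.57 in iNSC (limma adjusted p = 3.8e-11) and by 1.28 in NSC (adjusted p = 6.72e-09) against MEF. In the nuclear complex Rbpj, the DNA-binding partner of the Notch intracellular domain, fell by 1.09 in iNSC (adjusted p = 2.13e-07) and by 1.03 in NSC (adjusted p = 3.21e-06). Its second probe set gave -0.22 and -0.064, neither passing (adjusted p = 0.0846 and 0.701), so the 2 probe sets disagree. Maml2, a Mastermind coactivator, was not called on the probe set used (-0.65 in iNSC and -0.35 in NSC against MEF), whereas its second probe set gave -1.52 and -1.14 (adjusted p = 1.85e-06 and 0.000226). Between iNSC and NSC Rbpj differed by -0.058 (adjusted p = 0.754). The Rbpj call against MEF ended in iNSC without MEF replicate 1 (-0.98) and in NSC without MEF replicate 1 (-0.92) or NSC replicate 3 (-0.91). Snw1, a coactivator of the complex, rose by 1.07 in NSC against MEF (adjusted p = 2.41e-06), a call lost without NSC replicate 1 (0.99) or MEF replicate 5 (0.93), or when blocked by replicate number (0.92). In iNSC Snw1 was 0.59 above MEF (adjusted p = 0.000272), under 2-fold.

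Groucho-type corepressors, which HES proteins recruit, went both ways. Tle4 rose by 1.78 in iNSC (limma adjusted p = 4.71e-11) and by 1.69 in NSC (adjusted p = 9.77e-10) against MEF, and Tle3 rose by 1.20 in NSC (adjusted p = 4.56e-10). Tle1 fell by 1.02 in NSC (adjusted p = 4.47e-07), a call that ended without NSC replicate 3 or MEF replicate 1 (both -0.98). In iNSC against MEF Tle3 was 0.96 higher (adjusted p = 8.89e-10) and Tle1 0.68 lower (adjusted p = 9.16e-06), both short of 2-fold. Tle2 was not called.

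In iNSC against NSC 3 of the 5 called genes belonged to receptor turnover, where 10 were measured. All 3 were higher, and 2.91% of all genes were called higher. By the adjusted p alone 4 of the 10 were higher and 2 lower, where 35.8% of all genes passed in either direction. The median of the 10 was 0.027. Numbl, a relative of the Notch antagonist Numb, rose by 1.25 (limma adjusted p = 3.83e-10), and the Deltex ligases Dtx4 and Dtx2, which act on Notch in its endocytic route, rose by 1.25 (adjusted p = 3.53e-09) and by 1.06 (adjusted p = 3.74e-08). Dtx4 also rose against MEF, by 1.11 (adjusted p = 6.18e-09). Dtx2 (0.97, adjusted p = 4.31e-08) and Numbl (0.54, adjusted p = 7.7e-06) were above MEF in iNSC without reaching 2-fold. Hes6, a HES protein that opposes Hes1 and promotes neuronal differentiation, fell by 1.18 in iNSC against NSC (adjusted p = 6.73e-09). Of 7 neuronal markers measured, 4 were called higher in iNSC than in NSC and none lower, where 2.91% of all genes were called higher. Rbfox3 was higher without reaching 2-fold (0.59), Syt1 was lower (-0.42, limma adjusted p = 0.0266) and Snap25 did not pass (0.125). List means were 6.15 to 6.23 on iNSC arrays against 5.20 to 5.40 on NSC arrays. The part of neuronal markers in the Hes6 difference was not tested.

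**Figure D4:**
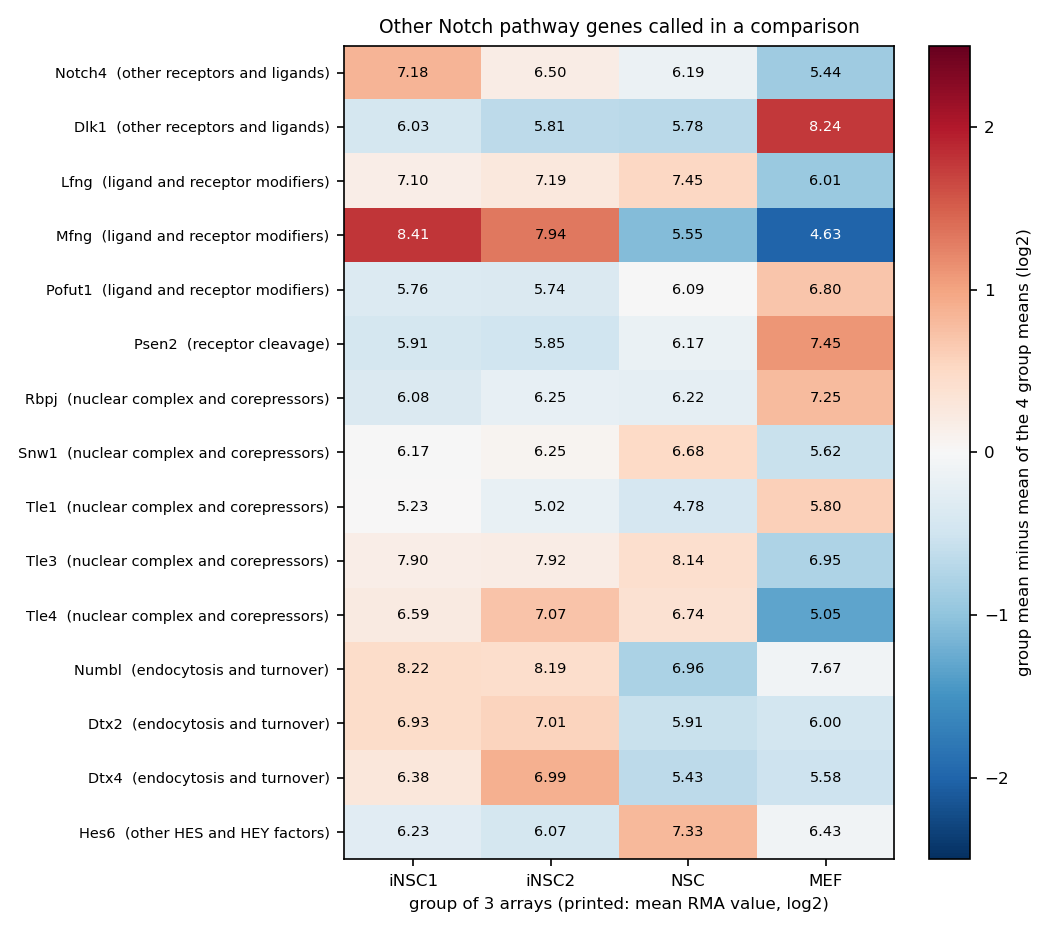
Mean log2 RMA values (printed) of the 15 other pathway genes called in a comparison, by group (x axis, 3 arrays each), with colour for the deviation from the mean of the 4 groups. Mfng runs from 8.41 in iNSC1 to 4.63 in MEF, and Dlk1 reads highest in MEF.

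Genes with the pattern most like each member were taken by Pearson correlation over the 12 arrays, which share 4 groups, so that r mainly describes group means and carries no p. For Nrarp they were Aurkb (0.997), Vax2 (0.996) and Phc1 (0.996), for Jag2 Fasn (0.996), Eif1ad (0.994) and Chtf18 (0.994), and for Hes1 Trim47 (0.992), Fam20c (0.989) and Cdkn1c (0.987). For Notch1 they were Naxe (0.997), Id3 (0.993) and Cdkn1a (0.992), for Notch3 Ergic3 (0.994), Tm4sf1 (0.990) and Clptm1 (0.990), for Jag1 Dcbld2 (0.984), Alg5 (0.979) and Rdh14 (0.978), and for Dll1 Nhlrc2 (0.968), Ranbp17 (0.963) and Rab6b (0.961). Notch2, Hes5 and Hey1 spanned less than 1 between group means and were not matched.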

How the data were processed

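The 12 arrays were of the Affymetrix Mouse Gene 1.0 ST type, 3 in each of 4 groups taken from the sample titles. The deposited log2 values were made by the authors with RMA in Affymetrix Power Tools, as the submitters' processing notes name them. RMA as a method corrects background, normalises by quantiles and summarises probes. The sources used here give no versions, genome build or annotation release. A second deposited table gave gene symbols, log2 ratios and adjusted p-values by the authors. Of its per-array columns, 9 matched a title and equalled the log2 values exactly, and 3 whose names do not match a title were not used.

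Of 28815 probe sets, 21774 were in the second table and 18403 of these had 1 symbol. Symbols were updated through Entrez identifiers with a RefSeq table of GRCm38.p6 (17520 matched). Each gene was read from its probe set of highest mean on the 12 arrays, giving 17103 genes, and low values were not filtered.

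Differences were fitted with limma 3.58.1 (R 4.3.3), with 1 mean per group, a spread shared by all arrays (8 residual and 8.7 prior degrees of freedom) and a trend on expression, and the fit was tested on simulated data. Genes were called at a two-sided adjusted p (Benjamini-Hochberg, 17103 genes) under 0.05 and at least 2-fold. Alternatives changed the fold minimum, a filter on low values, probe sets, centring, moderation, the groups fitted, a replicate block and each array in turn. The 10 members, the lists and the naming rule were chosen with earlier results of these data known. Results on some of the other pathway genes are not reported here. The rule names every member, the other pathway genes called in a comparison, and the 3 genes most correlated with each member that spans at least 1 on the log2 scale. Other genes named in the text were chosen after their values were seen. The labels do not say whether arrays of a group come from separate cultures, so p-values measure the spread between these arrays, and 3 arrays per group limit the precision.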

Additional observations from a re-analysis of the deposited data

Results flagged for a closer look

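Differences from MEF of opposite sign in iNSC and NSC were found for 4 of the members and the 58 other pathway genes measured, 1 of them a member. Both differences, and iNSC minus NSC as well, had to pass an adjusted p of 0.05 in limma. The adjusted p-values given below were thus used in choosing these genes and are no further support. The share of all genes with this pattern was not counted. Singly, 55.9% of all genes passed in iNSC minus MEF, 51.9% in NSC minus MEF and 35.8% in iNSC minus NSC. Hes1 was 0.64 above MEF in iNSC and 1.13 below it in NSC (NSC minus MEF -1.13), and the difference itself, iNSC minus NSC, was 1.76 (adjusted p = 7.09e-12, all 6 iNSC arrays above all 3 NSC arrays). Numbl was at 0.54 and -0.71, with iNSC minus NSC at 1.25 (adjusted p = 3.83e-10). Hes6 was at -0.28 and 0.90, with iNSC minus NSC at -1.18 (adjusted p = 6.73e-09). Kat2b, which encodes a histone acetyltransferase, was at -0.40 and 0.42, with iNSC minus NSC at -0.82 (adjusted p = 9.28e-06), under 2-fold. Its group means ran from 3.58 to 4.44, and how far they stand above background is not known.

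The iNSC sets differed past an adjusted p of 0.05, without reaching 2-fold, in 3 pathway genes named above and in none of the members. Notch4 was 0.68 higher in iNSC1 (limma adjusted p = 0.00314), while Dtx4 and Tle4 gave iNSC1 minus iNSC2 differences of -0.61 (adjusted p = 0.00311) and -0.47 (adjusted p = 0.0419). Across all genes 2.3% passed this test.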

How the results depend on the processing

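Centring, both other moderations, fitting only the compared groups, every probe set on its own, and a minimum of 6 for the highest group mean kept each count of called members, other pathway genes and all genes within 1.5 times its value. Centring added Jag1 (-1.04) to the members called in NSC minus MEF. The fold minimum moved them. With an adjusted p alone, iNSC minus MEF, iNSC minus NSC and NSC minus MEF gave 8, 6 and 8 members, 31, 27 and 34 pathway genes and 9558, 6115 and 8871 genes, and iNSC1 minus iNSC2 gave 3 pathway genes and 393 genes. At 4-fold the limma counts in that order were 3, 0 (7 with an unadjusted p under 0.05, beside 42.4% of all genes) and 2 members, 2, 1 and 1 pathway genes and 994, 293 and 938 genes, and 2 genes for iNSC1 minus iNSC2. Dll1 in iNSC minus NSC, near 0, changed sign to 0.015 with centring, 0.013 without iNSC2 replicate 2 and 0.024 without NSC replicate 2, and ran down to -0.13 without NSC replicate 1. Without 1 array, called members ran from 5 to 5, 2 to 2 and 4 to 6.

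Arrays of the same replicate number did not deviate together throughout (r of deviations -0.18 to 0.28, above 0.1 in 6 of 15 pairs). The median r was 0.085 for arrays of the same number and -0.045 for arrays of other numbers. With so few arrays per group, these values cannot decide whether the numbers pair the samples. With the replicate block, where MEF replicate 5 has no partner, 5, 2, 5 and 0 members were called in the comparisons in the order above and then iNSC1 minus iNSC2, Jag1 (-1.07) being added in NSC minus MEF. The arrays carry no detection call, so signal over background could not be set for low readings.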
